A study of Homo sapiens with 6 samples.

Results

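SHH encodes Sonic hedgehog, a secreted signalling protein that patterns the limb buds, the neural tube and many other organs of the embryo. Its limb enhancer, the ZRS, is known to lie far from the gene, in the fifth intron of LMBR1, a gene for a membrane protein. A gene desert separates SHH from RNF32 and LMBR1, and in many tissues SHH and this enhancer are known to share a topologically associated domain (TAD), a stretch of chromosome that contacts itself more than it contacts its neighbours. CTCF, a zinc finger protein, binds many TAD boundaries and is known to act there as an insulator.

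The SHH and LMBR1 region was examined as every 40 kb bin of chromosome 7 from 154800001 to 157520000 of hg19. The TADs that touch it were included. The region was set by position and not by a cutoff on measured values, though earlier results of these data were known. It holds 68 bins, all usable in both maps, of 3526 bins of chromosome 7 and 61049 autosomal bins with contacts. Of 12 protein-coding genes that start in it, 5 gave it its definition: EN2, SHH, RNF32, LMBR1 and MNX1. The start of SHH, at position 155605157 on the minus strand, falls in the bin 155600001 to 155640000, called the SHH bin here, and the gene's far end reaches into the bin before it. The 6 LMBR1 bins run from 156480001 to 156720000, at 880 to 1080 kb from the SHH bin, and the fifth intron of LMBR1 spans 156556490 to 156589082. RNF32, a RING finger gene, lies at 156432975 to 156469824, MNX1, a homeobox gene of motor neurons and pancreas, at 156786745 to 156803357, and EN2, a homeobox gene of the midbrain and hindbrain, at 155250824 to 155257526 on the other side of SHH.

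The maps came from Hi-C, which ligates and sequences DNA ends that lay close together in fixed nuclei, with BglII as the cutter. LNCaP, an established prostate cancer cell line, received 20 nM of a pool of non-targeting siRNAs (control siRNA, 2 libraries) or 20 nM of a pool of siRNAs against CTCF (CTCF siRNA, 4 libraries), and nuclei were taken at 144 h. Each condition was deposited as 1 pooled map and 1 TAD list, so there was no replicate, no difference between the conditions was tested, and every interval or SD below covers counting error alone. The labels call 2 of the CTCF siRNA libraries Rep1.1 and Rep2.1 beside Rep1 and Rep2, and do not say how the former relate to the latter. Neither CTCF nor SHH levels were measured in these files, and the labelled cell line could not be checked against marker genes.

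The CTCF siRNA pool consisted of 4 sequences, shown because they are the only treatment that separates the maps. They are written 5′ to 3′ in lower case, with nothing marked.

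CTCF siRNA 1: gaugaagacugaaguaaug
CTCF siRNA 2: ggagaaagaagaagagua
CTCF siRNA 3: gaagaugccugccacuuac
CTCF siRNA 4: gaacagcccauaaacauag

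The region was covered unequally in the 2 maps, and this bears on every contact number below. Within the region there were 8864 contacts (read pairs between 2 different bins) in control siRNA and 53740 in CTCF siRNA. The median bin of the region had 363.5 contacts along the chromosome in control siRNA, 1.09 times the median of chromosome 7, and 2034.5 in CTCF siRNA, 1.86 times that median. The SHH bin stood at 0.693 times the chromosome median in control siRNA and at 1.22 times in CTCF siRNA, the LMBR1 bins at 0.902 and 1.25 times, and the MNX1 bins at 1.17 and 2.41 times. Expected contacts were the mean over usable bin pairs of chromosome 7 at the same distance, so observed over expected was raised in CTCF siRNA for the region as a whole. The part of this coverage in any single pair was not tested. Values from balanced counts, which scale every bin to the same total, were computed for the main pairs and are given where they turn the order of the maps or move a ratio by 1.5 times or more. The insulation value compares contacts within the same map and place. The share of contacts on each side of a bin compares different places of the same map, whose coverage was raised unequally in CTCF siRNA.

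**Figure D1:**
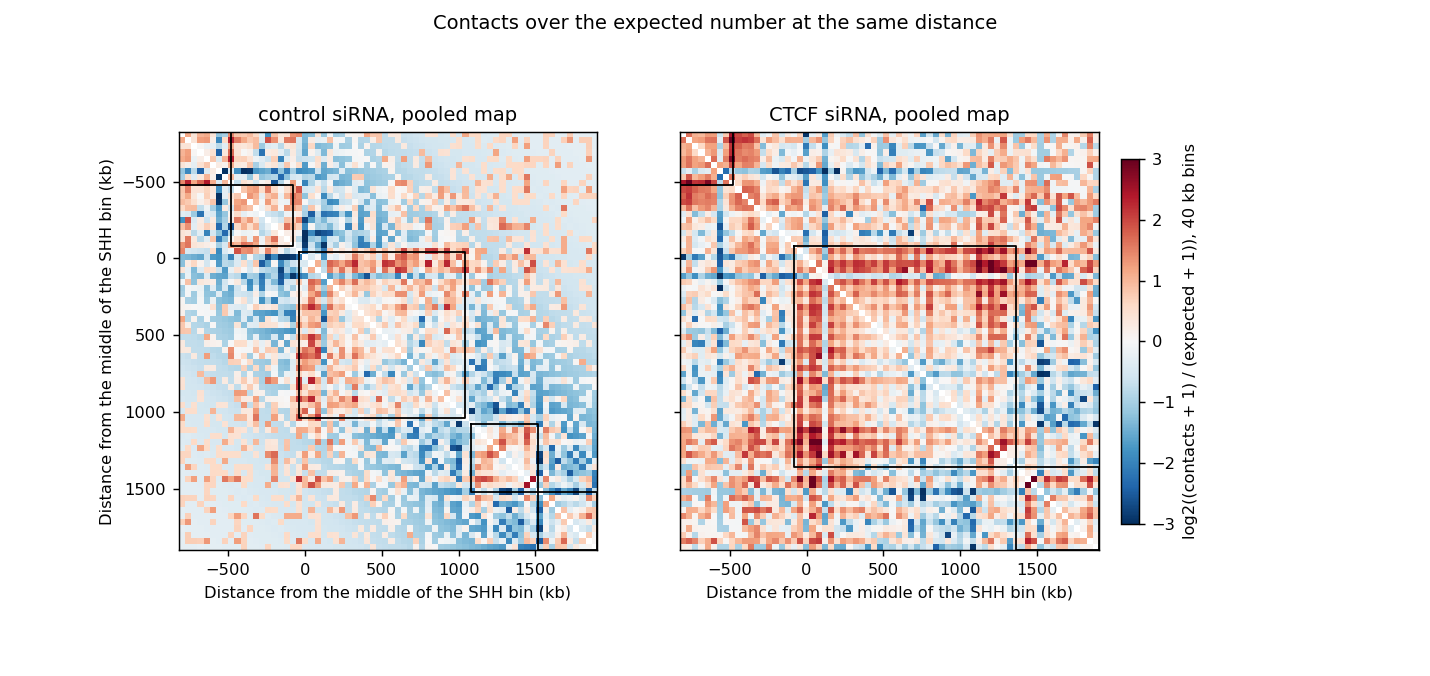
Contacts over the expected number at the same distance, as log2 with 1 added to both, for every pair of 40 kb bins in the control siRNA map (left) and the CTCF siRNA map (right). Both axes give the distance from the middle of the SHH bin in kb, red marks more and blue fewer contacts than expected, and black outlines are the deposited TADs. In control siRNA the blocks beside the SHH TAD are mostly blue, while in CTCF siRNA the SHH outline reaches 1360 kb from the SHH bin. The part added to it is mostly red, with blue bins among them, for example between LMBR1 bins and the UBE3C start bin. The counts are raw, so the unequal coverage remains in the colours. Between the control SHH and MNX1 TADs, CTCF siRNA stood at 1.79 on raw and 1.05 on balanced counts.

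In control siRNA, SHH sat at the very start of its TAD, which ran from 155580001 to 156660000 through the whole gene desert and into LMBR1. Of the protein-coding genes, SHH and RNF32 started inside this TAD. LMBR1 started, at 156685910, in a gap of 40 kb between it and the next TAD, so the gene body lay mostly within the SHH TAD and its promoter outside. The fifth intron of LMBR1 was inside, as was SHH. At 1080 kb the TAD was larger than the median of 720 kb of all 2864 control TADs, at the 71.9th percentile. Its centromeric neighbour (155140001 to 155540000) held the starts of EN2, CNPY1 and RBM33, an RNA-binding protein gene, and its telomeric neighbour (156700001 to 157140000) held those of NOM1, a nucleolar protein gene, MNX1, UBE3C, an E3 ubiquitin ligase gene, and DNAJB6, a co-chaperone gene.

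In CTCF siRNA, 1 TAD from 155540001 to 156980000 held the starts of SHH, RNF32, LMBR1, NOM1, MNX1 and UBE3C. It was 1440 kb long, against a median of 840 kb for the 2389 TADs of that list. Its centromeric edge was within 40 kb of the control edge, whereas its telomeric edge had no control counterpart and the control edge inside LMBR1, at 156660000, was 320 kb from the nearest CTCF siRNA edge. SHH, the fifth intron of LMBR1, the LMBR1 start and MNX1 were therefore in the same called domain in this list, and in the control list only SHH and the intron were. EN2, CNPY1 and RBM33 started in a stretch of 400 kb (155140001 to 155540000) with no TAD in CTCF siRNA, which in control siRNA was a TAD of its own. The maps behind the lists differed in depth, with 435007 whole-count contacts on chromosome 7 in control siRNA and 1707783 in CTCF siRNA. The part of depth in the differences between the lists was not tested.

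Of the 6 distinct control edges in the region, 3 had a CTCF siRNA edge within 40 kb, where 51.4% of 3988 control edges genome-wide did, so the share was near the background. All 3 lay on the EN2 to SHH side, at 155140000, 155540000 and 155580000, and the 3 without a partner lay in LMBR1, just past its start, and in DNAJB6. The control edges at 155540000 and 155580000 had the same CTCF siRNA edge, at 155540000, as partner. Only 2 control edges had a partner at the same position. The SHH TAD did not keep both edges, which 27.1% of the 2864 control TADs did.

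Insulation separated the edges more finely than the TAD lists. To obtain the insulation value of a bin, contacts that cross it were divided by their expected number. The ratio was set against the same ratio within flanks of 400 kb, and log2 was taken. Low values thus mark places that few contacts cross relative to the contacts within the flanks. The centromeric edge bin of the SHH TAD, starting at 155560001, which holds the ends of RBM33 and SHH, had the lowest value of the region in control siRNA, -1.79 ± 0.12 (counting SD, as for all values here). Only 168 contacts crossed it where 378.6 were expected, and 0.718% of 42476 autosomal bins were as low. In CTCF siRNA its value was -0.69 ± 0.04, 1.1 ± 0.12 higher, and 1.36% of autosomal bins differed by as much in that direction. The size of this difference depended on the flanks, at 1.53 with 200 kb and 0.63 with 800 kb. It remained a local minimum in CTCF siRNA. The SHH bin beside it went from -1.41 ± 0.10 to -0.35 ± 0.03. Both edges of the SHH TAD were taken from the control TAD list, which was called from the same control contacts. Low control values there, and higher values in CTCF siRNA, were favoured by that choice. The shares given for these edges are of all autosomal bins and not of control TAD edges.

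At the other end, the control minimum was not at the edge bin itself (156640001 to 156680000, -1.27 ± 0.11) but in the next bin, 156680001 to 156720000, which holds the LMBR1 start, with -1.37 ± 0.11. The NOM1 bin after it was at -1.26 ± 0.11. In CTCF siRNA these 3 bins were at -0.20 ± 0.04, -0.46 ± 0.04 and -0.64 ± 0.04. The valley that had covered LMBR1 and NOM1 was thus shallower and had its lowest point in the NOM1 bin, 80 kb beyond the edge bin. The difference at the edge bin was 1.07 ± 0.12, a size that 1.55% of autosomal bins reached.

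Another control valley lay in DNAJB6, at 157160001 to 157200000, with -1.45 ± 0.11 in control siRNA and -0.38 ± 0.04 in CTCF siRNA. This bin was picked as a minimum of the control map, so a higher CTCF siRNA value there was favoured by that choice. A pattern opposite to that in DNAJB6 was seen at the new CTCF siRNA edge in UBE3C. That edge was called from the CTCF siRNA contacts, so a lower CTCF siRNA value there was likewise favoured. Its bin, 156960001 to 157000000, was close to flat in control siRNA, at -0.10 ± 0.08, and was the lowest bin of the region in CTCF siRNA, at -0.72 ± 0.04. Contacts crossing this bin stood at 395 against 378.6 expected in control siRNA and 1702 against 1592 in CTCF siRNA. Its CTCF siRNA value was thus low beside the contacts within the flanks, and not through fewer crossing contacts than expected.

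Counted over the region, 8 of 68 bins (11.8%) had a control insulation value of -1 or less, against 8.09% of autosomal bins, and in CTCF siRNA 0 of 68 did, against 2.9%. A difference of 0.5 or more towards weaker insulation in CTCF siRNA occurred in 13 of 68 bins (19.1%), against 13.0% of autosomal bins. These 13 fell into 3 runs of neighbouring bins, at SHH, from the fifth intron of LMBR1 to NOM1, and around DNAJB6. A difference of 0.5 or more the other way occurred in 3 bins (4.41%), against 3.65%, and all 3 lay between MNX1 and the middle of UBE3C. The spread of insulation values over the 68 bins was narrower in CTCF siRNA, with an SD of 0.38 against 0.62 in control siRNA, and over all autosomal bins the SDs were 0.42 and 0.58.

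Differences of both signs occurred along the region. The median difference of the 68 bins was -0.03 and the mean 0.06 ± 0.03, against a median of 0.02 and a mean of 0.07 over all autosomal bins. In the 15 bins of the desert that lie 200 kb or more from the SHH bin, from 155800001 to 156400000, the difference ranged from -0.09 to 0.05, and the 2 maps gave almost the same slope from 0.64 near SHH to 0.14 near RNF32 in control siRNA. EN2 and CNPY1, in the domain missing from the CTCF siRNA list, were lower in CTCF siRNA instead, at -0.43 ± 0.04 in the EN2 bin against -0.01 ± 0.08 in control siRNA. Raw contacts crossing the EN2 bin were above expectation in both maps, at 440 against 378.6 in control siRNA and 2176 against 1592 in CTCF siRNA.

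**Figure D2:**
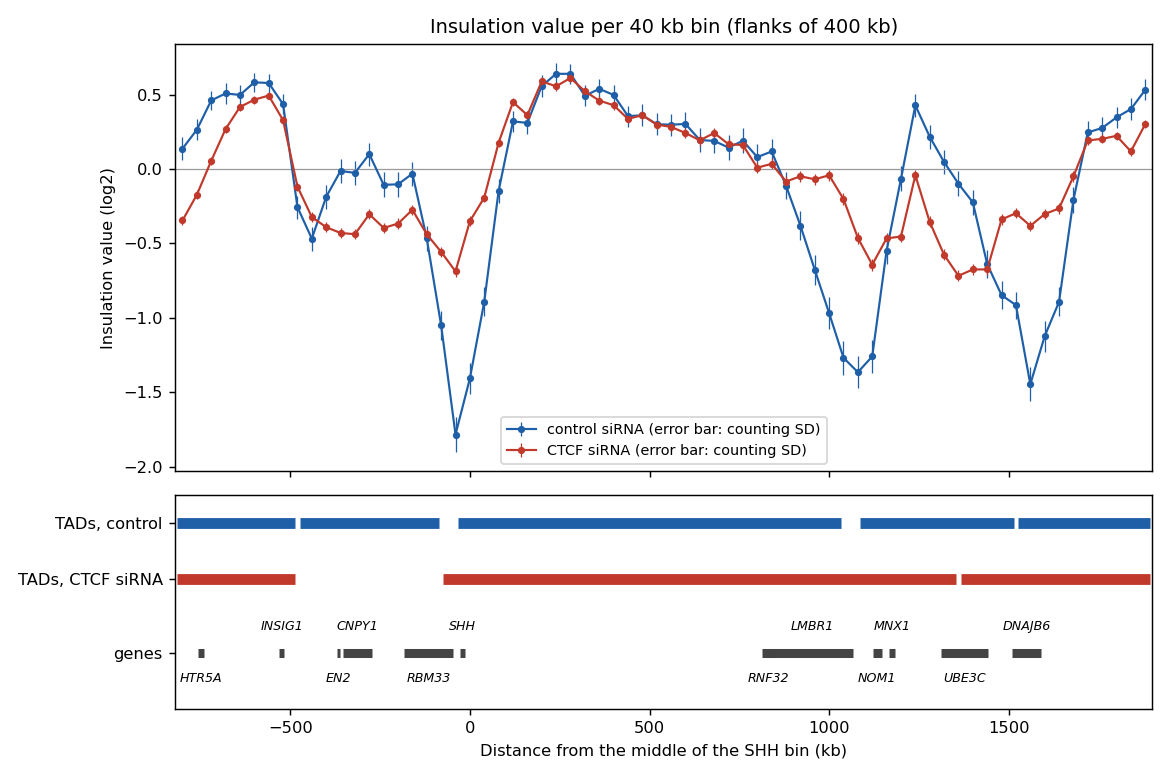
Insulation value (log2) of each 40 kb bin by distance from the middle of the SHH bin in kb, in control siRNA (blue) and CTCF siRNA (red), with bars for the counting SD, above the deposited TADs and the protein-coding genes. The 3 control valleys at SHH, LMBR1 to NOM1 and DNAJB6 go down to -1.79, -1.37 and -1.45, the red line reaches -0.72 at its lowest, and the lines lie close together in the gene desert from 160 kb onwards.

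The SHH bin contacted LMBR1 more often than distance alone gave in both maps. From the first LMBR1 bin to the last, the control map held 2, 5, 2, 6, 2 and 1 contacts with the SHH bin, 18 in all where 6.55 were expected, a ratio of 2.75 (95% interval 1.63 to 4.34). In CTCF siRNA the same bins held 11, 9, 8, 6, 11 and 5 contacts, 50 against 28.8 expected, a ratio of 1.74 (1.29 to 2.29). Both intervals lay above 1. CTCF siRNA over control was 0.633 with an interval of 0.363 to 1.15, which includes 1 and covers counting error only. A control ratio of 1.5 or more was found in 20.7% of 41342 autosomal positions with the same geometry, and in 17.3% in CTCF siRNA. A position as high as SHH occurred in 5.23% and 12.5% of cases, and the medians were 0.75 and 0.8. A CTCF siRNA over control ratio of 1/1.5 or less occurred at 28.4% of 39389 positions, so that of SHH and LMBR1 was not unusual for its distance.

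How strongly SHH and LMBR1 were linked depended on the anchor. The 2 bins that the SHH gene touches had 41 contacts with LMBR1 against 12.6 expected in control siRNA (3.24, 2.33 to 4.40) and 168 against 55.7 in CTCF siRNA (3.02, 2.58 to 3.51), a CTCF siRNA over control ratio of 0.931 (0.658 to 1.34). For the 2 bins that the fifth intron of LMBR1 touches, the SHH bin had 7 contacts against 2.28 expected in control siRNA (3.07, 1.24 to 6.33). In CTCF siRNA it had 17 against 10.2 (1.67, 0.974 to 2.68). Of these, 5 and 9 contacts were with the bin at 156520001, which holds the smaller part of the intron. The position of the ZRS within the intron was not examined. The bin with most of that intron had 2 contacts in control siRNA and 8 in CTCF siRNA, too few to tell from the 1.09 and 4.89 expected. With balanced counts the 6 LMBR1 bins stood at 4.87 in control siRNA and 2.35 in CTCF siRNA.

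Whether LMBR1 stood above the gene desert before it depended on which part of the desert was compared. Gene-free here means without a protein-coding gene. The 15 gene-free bins at 200 kb or more from the SHH bin had 98 contacts with it against 50.6 expected in control siRNA (1.94, 1.57 to 2.36) and 388 against 214 in CTCF siRNA (1.81, 1.64 to 2.0). The ratio of LMBR1 over these bins was 1.42 (0.808 to 2.36) in control siRNA and 0.96 (0.7 to 1.29) in CTCF siRNA, with 1 inside both intervals. All 19 gene-free bins up to RNF32, a set chosen after seeing the data, had 143 contacts against 112 in control siRNA (1.28, 1.07 to 1.5) and 740 against 462 in CTCF siRNA (1.6, 1.49 to 1.72). Over all 19, LMBR1 stood at 2.16 (1.24 to 3.53) in control siRNA and 1.09 (0.799 to 1.45) in CTCF siRNA, so its excess was outside counting error in control siRNA alone. With balanced counts the 15 bins stood at 2.91 and 1.89 and the 19 bins at 1.82 and 1.5, below the values of LMBR1 in both maps. No interval was computed for balanced counts. The 3 bins with the highest control ratio to the SHH bin, among those with at least 5 contacts and at least 200 kb away, were picked for that value and lay in LMBR1 at 156600001 (6 contacts, 1.06 expected), in the desert at 156240001 (10, 2.07 expected) and in LMBR1 at 156520001 (5, 1.18 expected). In CTCF siRNA they held 6, 21 and 9 contacts where 4.54, 9.06 and 5.28 were expected.

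RNF32, between the desert and LMBR1, had 4 contacts with the SHH bin against 2.88 expected in control siRNA (1.39, 0.378 to 3.55) and 25 against 12.7 in CTCF siRNA (1.97, 1.28 to 2.92), and 2.82 and 2.45 with balanced counts, which turned the order. Beyond the control TAD, MNX1 had 0 contacts with the SHH bin in control siRNA where 1.59 were expected, which leaves room for a ratio of up to 2.33. In CTCF siRNA MNX1 had 18 against 6.87 (2.62, 1.55 to 4.14), and 2.34 with balanced counts. NOM1 had 3 contacts against 1.67 (1.79, 0.37 to 5.24) and 29 against 7.38 (3.93, 2.63 to 5.64), and 2.84 and 3.49 balanced. The bin at 156760001 was counted for both MNX1 and NOM1. It held 0 contacts with the SHH bin in control siRNA and 10 in CTCF siRNA, so the counts of these genes are not separate.

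UBE3C, farther out, had 7 contacts against 2.48 in control siRNA (2.83, 1.14 to 5.82), a ratio close to that of LMBR1, and 17 against 10.4 in CTCF siRNA (1.64, 0.954 to 2.62), and 4.44 and 1.88 balanced. CTCF siRNA over control was 0.579 for UBE3C (0.228 to 1.65), with 1 inside the counting interval. The 21 bins beyond the control TAD begin with the LMBR1 start bin, at 156680001, which was also counted with LMBR1 above. Over all 21 bins the SHH bin had 17 contacts against 12.0 in control siRNA (1.42, 0.826 to 2.27) and 92 against 50.8 in CTCF siRNA (1.81, 1.46 to 2.22). CTCF siRNA over control was 1.28 (0.755 to 2.28), and the balanced values were 2.15 and 1.67, the reverse order. This sum joins genes with ratios on both sides of 1, and does not speak for MNX1, NOM1 or UBE3C alone.

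**Figure D3:**
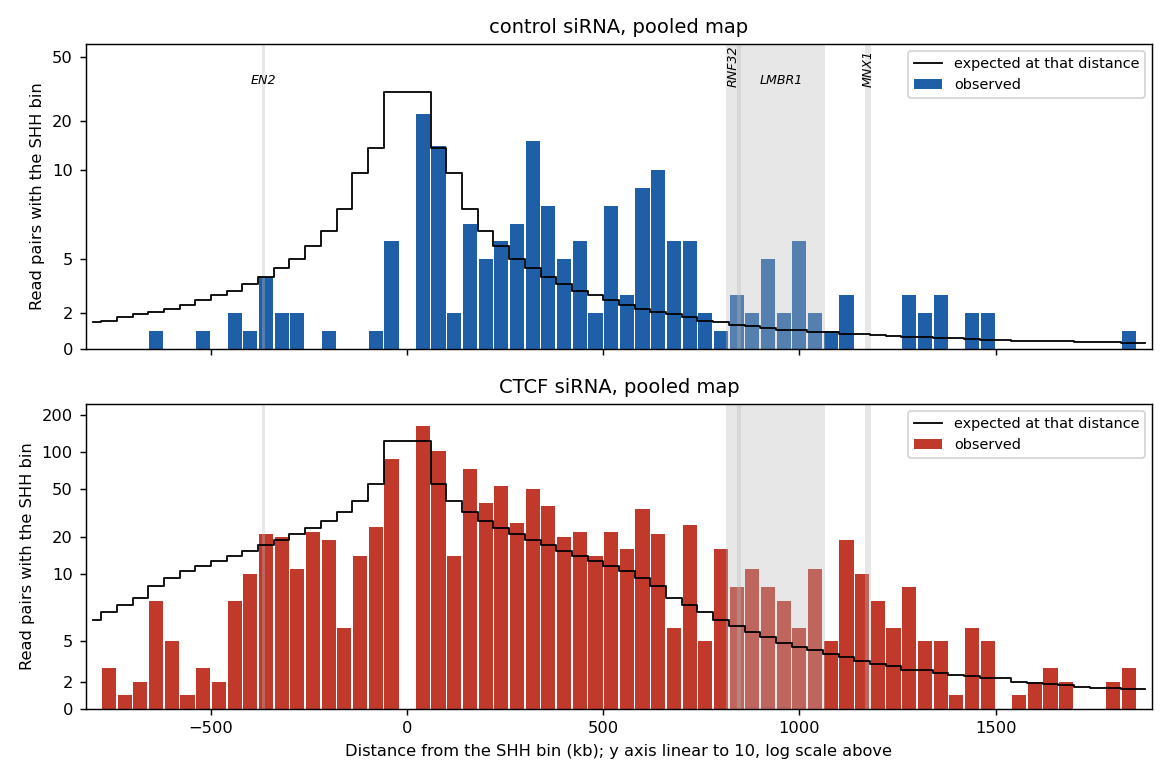
Read pairs between the SHH bin and every other bin of the region by distance in kb, in control siRNA (above, blue) and CTCF siRNA (below, red), with the number expected at each distance as a black line. The vertical axis is linear to 10 and logarithmic above it, and grey bands mark EN2, RNF32, LMBR1 and MNX1. On the left, towards RBM33, the bars stay far below the line in control siRNA (8 contacts in the 5 nearest bins) and nearer to it in CTCF siRNA (150 contacts).

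Among genes with any control contact to the SHH bin, the highest CTCF siRNA over control ratio was that of RBM33, on the other side of SHH across the centromeric edge. The 5 nearest bins on that side, which RBM33 covers, had 8 contacts with the SHH bin in control siRNA where 68.1 were expected, a ratio of 0.117 (0.0507 to 0.231), and the 5 nearest bins on the LMBR1 side had 50 contacts (0.734, 0.545 to 0.968). In CTCF siRNA the RBM33 side had 150 contacts against 275 expected (0.545, 0.461 to 0.640) and the LMBR1 side 390 (1.42, 1.28 to 1.56). CTCF siRNA over control was 4.64 (2.30 to 10.9) for RBM33 and 1.93 (1.44 to 2.65) for the LMBR1 side. With balanced counts the RBM33 side stood at 0.152 and 0.570, and the LMBR1 side at 0.931 and 1.18. The RBM33 side was thus closer to expectation in CTCF siRNA on both scales, and still below the LMBR1 side. Of its contacts, 6 in control siRNA and 87 in CTCF siRNA were with the bin at 155560001. That bin also holds the end of SHH and the control edge, so not all of these contacts are with RBM33 across the edge. EN2, farther away on the same side, was near expectation in both maps, with 4 contacts against 4.04 (0.991, 0.27 to 2.54) and 21 against 17.2 (1.22, 0.758 to 1.87), and 1.23 and 0.872 with balanced counts, in the reverse order. The outermost genes had the lowest observed over expected values with the SHH bin in CTCF siRNA, each on 3 contacts. INSIG1, a regulator of sterol synthesis, had 3 against 11.6 expected (0.258, 0.0532 to 0.755). HTR5A, a serotonin receptor gene, had 3 against 7.17 (0.418, 0.0863 to 1.22), and DNAJB6, at the telomeric end, 3 against 6.14 (0.488, 0.101 to 1.43). Their intervals overlap that of RBM33, so counting error leaves their order below RBM33 unsettled. In control siRNA these 3 genes had 1, 0 and 0 contacts where 2.76, 1.59 and 1.43 were expected, too few to compare. Balanced values for INSIG1 were 0.802 and 0.326, and none were computed for HTR5A or DNAJB6 with the SHH bin.

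The imbalance around SHH showed in the share of its contacts within 2 Mb that pointed to the telomere, towards LMBR1. This share was 88.5% in control siRNA, 177 of 200 contacts, with a Wilson 95% interval of 83.3% to 92.2%. In CTCF siRNA it was 75.2% (72.6% to 77.5%), with 893 contacts on the telomeric and 295 on the centromeric side. The bin with most of the fifth intron of LMBR1 pointed the other way, towards SHH, with 28.2% (22.9% to 34.2%) of its contacts telomeric in control siRNA and 39.1% (36.5% to 41.8%) in CTCF siRNA. The MNX1 start, past the edge, pointed away from SHH with 67.4% (62.6% to 71.9%) telomeric in control siRNA, and 54.7% (52.9% to 56.5%) in CTCF siRNA. For SHH, the LMBR1 intron and MNX1 the share lay closer to an even split in CTCF siRNA and the intervals of the maps did not overlap. The edge bin that holds the ends of RBM33 and SHH differed the other way, with 50.4% (45.4% to 55.4%) telomeric in control siRNA and 60.3% (58.3% to 62.2%) in CTCF siRNA, also without overlap. For EN2 (45.9% and 49.8%), RNF32 (37.7% and 40%) and the LMBR1 start (48.5% and 41.6%) they overlapped. All these shares are of raw counts, and none was computed on balanced counts. The part of the unequal coverage in them was not tested.

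Gene pairs across the LMBR1 edge that did not involve SHH were not alike on raw counts. The LMBR1 bins include the edge bin, at 156640001, and the bin past it, at 156680001. Not all contacts of LMBR1 in these pairs therefore cross the edge. The bin at 156760001 was counted for both NOM1 and MNX1, so their pairs with LMBR1 are not separate. LMBR1 and NOM1, the neighbours across it, had 62 contacts against 122 expected in control siRNA (0.506, 0.388 to 0.649) and 617 against 497 in CTCF siRNA (1.24, 1.15 to 1.34). LMBR1 and MNX1 had 40 contacts against 88.1 expected in control siRNA (0.454, 0.325 to 0.619) and 393 against 360 in CTCF siRNA (1.09, 0.987 to 1.21). RNF32 and MNX1 had 5 against 16.2 (0.308, 0.1 to 0.72) and 138 against 68.6 (2.01, 1.69 to 2.38). CTCF siRNA over control was 2.45 (1.89 to 3.24) for LMBR1 with NOM1, 2.40 (1.73 to 3.42) for LMBR1 with MNX1 and 6.52 (2.73 to 20.4) for RNF32 with MNX1. With balanced counts LMBR1 with MNX1 stood at 0.513 and 0.822, and RNF32 with MNX1 at 0.347 and 1.4. LMBR1 with UBE3C, farther past the edge, showed no such difference on raw counts. This pair had 66 contacts against 89.9 (0.734, 0.568 to 0.934) and 259 against 381 (0.68, 0.6 to 0.768). Its CTCF siRNA over control ratio was 0.926 (0.704 to 1.23). Balanced values were not computed for LMBR1 with NOM1 or with UBE3C, so the unequal coverage remains in both. Inside the TAD, RNF32 and LMBR1 were near expectation in both maps, with 127 contacts against 122 and 451 against 497.

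EN2 was the only one of the 5 genes of the locus on the centromeric side of SHH, and its counts with LMBR1, RNF32 and MNX1 were low in control siRNA. It had 4 contacts with LMBR1 where 3.86 were expected, 3 with RNF32 where 1.59 were, and 0 with MNX1 where 0.954 were. In CTCF siRNA these were 41 against 16.4, 19 against 6.87 and 17 against 4.23, ratios of 2.50, 2.76 and 4.02. EN2 lay in the bin with 3.03 times the chromosome's median coverage in CTCF siRNA and 1.42 times in control siRNA, and with balanced counts the ratios were 1.02 and 1.31 for LMBR1, 1.91 and 1.16 for RNF32, and 1.31 in CTCF siRNA for MNX1. The CTCF siRNA ratios of EN2 were thus nearer to 1 on the balanced scale, and the order of the maps turned for RNF32. Past MNX1, UBE3C and DNAJB6, a gene that spans the control edge at 157140000, stood at 0.807 (0.635 to 1.01) and 1.48 (1.36 to 1.61), and MNX1 and UBE3C, both on the centromeric side of that edge, at 2.32 (1.94 to 2.76) and 2.63 (2.43 to 2.85), with the order turned on the balanced scale, at 2.2 and 1.73. MNX1 and DNAJB6, also across that edge, stood at 1.3 (0.877 to 1.86) and 1.02 (0.831 to 1.24), and at 1.58 and 0.713 balanced, so the pairs at this edge were not alike.

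**Figure D4:**
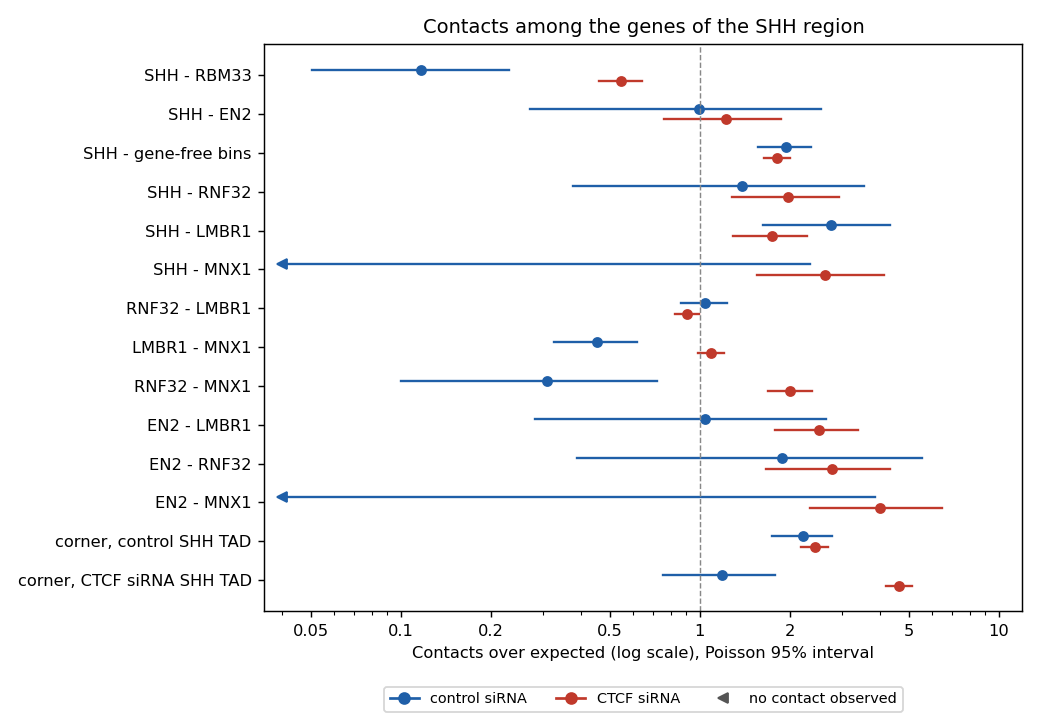
Contacts over expected on a log axis for gene pairs and TAD corners in control siRNA (blue) and CTCF siRNA (red), with exact Poisson 95% intervals, raw counts, and an arrow where no contact was observed. The intervals of the maps are apart for SHH with RBM33, LMBR1 with MNX1, RNF32 with MNX1 and the corner of the CTCF siRNA TAD, and they overlap for SHH with LMBR1 and for SHH with the gene-free bins 200 kb or more away.

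Contacts were also summed over whole domains. Within the control SHH TAD there were 3005 contacts against 2310 expected in control siRNA (1.3, 1.25 to 1.35) and 15605 against 9470 in CTCF siRNA (1.65, 1.62 to 1.67). With balanced counts the order turned, at 1.26 and 1.17. Between the SHH TAD and the MNX1 TAD the ratio was 0.664 (0.595 to 0.737) in control siRNA and 1.79 (1.74 to 1.85) in CTCF siRNA, or 0.613 and 1.05 with balanced counts. Between the SHH TAD and the EN2 to RBM33 TAD it was 0.609 (0.542 to 0.683) and 1.32 (1.27 to 1.37), or 0.545 and 0.803 balanced. Contacts between SHH's domain and both neighbours were thus below expectation in control siRNA and higher in CTCF siRNA on either scale, reaching the expected level towards MNX1 but not towards EN2 on the balanced scale. These domains were taken from the control list, so few contacts between them in the control map, and more in the other map, were favoured by that choice.

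The corners of the called domains, where the first 5 bins meet the last 5, were compared in the same way. The corner of the control SHH TAD, joining the SHH side to LMBR1, held 78 contacts against 35.2 in control siRNA (2.21, 1.75 to 2.76) and 375 contacts in CTCF siRNA (2.42, 2.18 to 2.68). CTCF siRNA over control was 1.09 (0.855 to 1.42) for this corner, with 1 inside the interval, and the balanced ratios were 2.45 and 1.74, the reverse order. The corner of the CTCF siRNA TAD, joining the SHH side to the bins from MNX1 to UBE3C, held 23 against 19.3 in control siRNA (1.19, 0.754 to 1.79) and 391 against 84.4 in CTCF siRNA (4.63, 4.19 to 5.12), with balanced ratios of 1.2 and 2.08. Each corner was chosen from the TAD list of its own map, so its height in that map is a description and no separate evidence.

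The DNA of the edges was searched for AGGGGGCGC, letters that form the core of the CTCF consensus, on both strands of hg19. These letters occurred in 13 of the 68 bins of the region (19.1%) and in 7.42% of 2573 usable bins of chromosome 7, and the region had a higher median GC content, 46.8% against 39.1%. The matches in the centromeric edge bin of the control SHH TAD, the SHH bin and the LMBR1 start bin are printed as 40 bases each, 5′ to 3′ on the strand named, with the match in capitals, because they show where such letters stand relative to SHH and LMBR1.

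Edge bin, chr7:155589288-155589327, minus strand: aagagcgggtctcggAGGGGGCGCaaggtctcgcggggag
Edge bin, chr7:155597883-155597922, plus strand: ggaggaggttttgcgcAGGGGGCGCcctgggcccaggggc
SHH bin, chr7:155616389-155616428, plus strand: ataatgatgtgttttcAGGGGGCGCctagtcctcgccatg
LMBR1 start bin, chr7:156701754-156701793, plus strand: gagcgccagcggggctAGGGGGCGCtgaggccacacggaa

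The first match lies outside protein-coding genes, between RBM33 and SHH, the second in an intron of SHH, the third upstream of SHH, and the last between LMBR1 and NOM1. The bins of the 3 control valleys that had the lowest values thus held a match at SHH (155560001) and at the LMBR1 start (156680001), and none at DNAJB6 (157160001). The edge bin inside LMBR1 (156640001) and the CTCF siRNA edge bin in UBE3C (156960001) held none. The NOM1 bin (156720001), lowest of its valley in CTCF siRNA, held a match, as did the bin of the shared edge at 155140000 (155120001). The bin of the shared edge at 155540000 (155520001) held none. A match shows letters in a 40 kb bin and not that CTCF was bound.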

How the data were processed

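Per the methods, the authors mapped BglII Hi-C reads to hg19 with Bowtie 1.1.0 within HiCUP, after FastQC 0.11.2, used SAMtools 1.2 and Picard 1.121 for sorting and duplicate tagging, pooled the libraries of a condition, and called TADs with a hidden Markov model on an index of contact direction. The deposited contact values in this region were whole read-pair counts per pair of 40 kb bins, not scaled for depth. Bins between positions 9400001 and 48120000, which carried correction factors, were left out of expected values.

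A bin was used where its contacts reached 10% of the chromosome median in both maps. Expected contacts were means by distance over usable pairs of chromosome 7. Intervals were exact Poisson for observed over expected, exact conditional binomial for ratios and Wilson for shares, all at 95%. They cover counting error only, and reads without molecular identifiers need not all be independent molecules. The scripts (Python 3.11.15, numpy 2.4.6, pandas 2.3.3, scipy 1.17.1) were tested on simulated maps. Genes came from GENCODE on hg19. The genes named were all protein-coding genes starting in the region, and the 3 bins with the highest control ratio to the SHH bin. Regions, genes and comparisons were chosen with earlier results of these data known. Alternatives changed the expected values, balancing, usable bins, anchors, flanks and edge tolerance.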

Additional observations from a re-analysis of the deposited data

How the results depend on the processing

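Of 53 alternative values for 11 results, 43 stayed within the spread of the value reported, 9 moved beyond it and 1 turned its direction; the cause was not tested. With balanced counts, SHH with LMBR1 stood at 4.87 in control siRNA and 2.35 in CTCF siRNA, the log2 ratio of CTCF siRNA to control within the control SHH TAD turned from 0.34 to -0.11, and that of the TAD with the rest of the region went from 1.07 to 0.48. With expected values from the last 40 Mb of the chromosome, these log2 ratios were 0.19 and 0.86. With both SHH bins as anchor, SHH with LMBR1 stood at 3.02 in CTCF siRNA. With all 19 gene-free bins in place of the 15 farther ones, chosen after seeing the data, LMBR1 over the desert went from 1.42 to 2.16 in control siRNA and from 0.96 to 1.09 in CTCF siRNA. The insulation difference at the centromeric edge was 1.53 with flanks of 200 kb and 0.63 with flanks of 800 kb, and that at the telomeric edge was 1.31 with flanks of 200 kb. Depth limited single pairs near 1 Mb, where about 1 contact per bin was expected in control siRNA. No paired analysis was possible because the authors pooled the libraries of each condition into 1 map, and for the same reason no library could be left out.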
